A study of Mus musculus with 6 samples.

Results

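The nuclear factor I (NFI) genes of the mouse are Nfia, Nfib, Nfic and Nfix. All 4 were taken by symbol from the 53801 genes counted in each library, and all 4 passed the filter on low counts. The RNA came from mouse neural progenitor cells (NPCs), which were differentiated from embryonic stem cells of the strain BL/6J x CAST-EiJ and then subcloned. In every library, the untreated ones included, the cells carried a degron on SPEN, so that auxin, a plant hormone, leads to loss of the SPEN protein. EGF and FGF were both present at 10 ng/ml in the N2B27 medium of all groups. The groups were untreated cells (0 h), cells after 24 h of auxin and cells after 48 h of auxin at 500 uM, each with n = 2 libraries, 1 from subclone 30 and 1 from subclone 31. Each subclone is a single clonal line, and no cells without the degron or with auxin alone were analysed here, so the effect of auxin itself and that of SPEN loss cannot be told apart.

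NFI proteins are transcription factors that bind the palindrome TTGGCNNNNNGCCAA, or a single TTGGC half-site, as homodimers or heterodimers through an N-terminal DNA-binding domain that all members share. In the nervous system NFIA and NFIB drive the switch of progenitors from making neurons to making glia, and NFIX is known for holding neural stem cells in quiescence, a reversible rest from the cell cycle. NFIC is best known for its part in tooth root formation. SPEN, also called SHARP, is an RNA-binding corepressor that acts with Xist on the X chromosome and with RBPJ, the DNA-binding partner of Notch.

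Since the members are paralogs, the first question was whether a read pair can be assigned to 1 of them. Nfia lies on chromosome 4 (chr4:97772734-98118874, mm10, plus strand, 346.1 kb) and Nfib on the same chromosome (chr4:82290173-82705750, minus strand, 415.6 kb). Nfic lies on chromosome 10 (chr10:81396186-81455635, minus strand, 59.4 kb) and Nfix on chromosome 8 (chr8:84699876-84800344, minus strand, 100.5 kb). Their merged exons measure 10891, 14957, 6630 and 7351 bp in the order Nfia, Nfib, Nfic and Nfix. A stretch of coding sequence where the 4 genes are much alike is shown here because likeness bears on that assignment. It was chosen for the most bases in common with Nfix, summed over the other members, with 1 transcript per gene. It is a window of 90 bases in exon 2 of each gene, within the part that encodes the N-terminal domain, read 5′ to 3′ on the coding strand (GENCODE vM21 on GRCm38). Capitals mark the 67 bases that are the same in all 4.
Nfia, chr4:97783136-97783225: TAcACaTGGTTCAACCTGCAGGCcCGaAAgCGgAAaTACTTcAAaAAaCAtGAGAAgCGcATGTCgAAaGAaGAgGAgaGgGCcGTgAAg
Nfib, chr4:82498626-82498715: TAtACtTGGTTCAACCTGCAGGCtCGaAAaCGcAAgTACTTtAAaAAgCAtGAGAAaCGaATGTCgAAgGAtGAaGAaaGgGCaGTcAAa
Nfic, chr10:81420655-81420744: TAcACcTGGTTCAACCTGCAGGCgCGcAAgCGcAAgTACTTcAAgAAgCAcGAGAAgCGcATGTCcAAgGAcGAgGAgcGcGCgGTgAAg
Nfix, chr8:84772172-84772261: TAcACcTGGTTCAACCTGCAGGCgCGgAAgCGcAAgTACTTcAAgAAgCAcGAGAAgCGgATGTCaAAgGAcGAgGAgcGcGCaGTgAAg
In this window Nfic and Nfix, the closest pair, differ at 4 of 90 bases, and Nfib and Nfic, the most distant, differ at 19. Over all annotated transcripts the longest run of identical bases between any pair was 32 (Nfic and Nfix, in the coding sequence), and no stretch of 50 bases was shared between any pair, while the reads were 100 bases long. On the opposite strand, Gm16104 shares 72 bp with exons of Nfic and had 0 to 3 counts per library, and G430095P16Rik shares 137 bp with exons of Nfix and had 3 to 8.

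Total counts per library ran from 24603816 to 43008978, and the members had 3631 to 18029 counts per library, a counting error of 0.745% to 1.66%. Of 6 markers of neural progenitors 5 were above 3 counts in every library, among them Sox2 (196 ± 5.81 CPM, SD, n = 2, untreated), Nes and Vim, while Sox1 had at most 3 counts in any library. The RNA of dividing cells was present in all groups. Mki67, a marker of cycling cells named after its values were seen, stood at 532 ± 150 CPM untreated and 602 ± 185 CPM at 48 h. It was the 1 gene above 0 at 48 h in a list of 12 cell division genes, of which the other 11 lay below 0 and 8 fell, as described with the lists. In these bulk samples, fewer cells of a type and less RNA per cell cannot be told apart. Nothing in the labels says that the 2 libraries of a group came from more than 1 culture each, so p-values measure only the spread among these libraries. Where a fit includes the clone as a term, that spread and the SE leave out the level difference between the clones. Such a fit on all 6 libraries has 2 residual degrees of freedom, against 3 without the clone. Levels in CPM, counts scaled to a common library size, were normalized with edgeR's TMM factors.

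Levels of different genes were compared per exon length, as TPM, which divides counts by exon length and scales each library to the same total. In untreated cells Nfix was the most abundant member at 175 ± 7.67 TPM (SD, n = 2), followed by Nfic at 104 ± 9.66, Nfib at 98.2 ± 11.8 and Nfia at 84.1 ± 20.6 TPM. Nfix lay above the other members in both libraries by more than their spread, whereas the ranges of Nfic, Nfib and Nfia overlapped. Nfix ranked between 755 and 1504 among all genes by TPM over the 6 libraries, and Nfia between 2084 and 3834. Within each single library of untreated cells and of cells at 24 h the order was Nfix, Nfic, Nfib, Nfia. In both libraries at 48 h it was Nfix, Nfib, Nfia, Nfic. There Nfix stood at 239 ± 7.82 TPM, Nfib at 149 ± 27.1, Nfia at 96.1 ± 17.0 and Nfic at 76.2 ± 0.197 TPM, with no overlap between neighbours in the order.

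How the members stand after the longest exposure is read from 48 h against no auxin. The planned edgeR fit, with treatment group alone, called 0 of the 16007 genes tested. The values here and below come from an alternative fit with the clone as a block, unless stated. In it Nfib and Nfix rose, Nfic fell and Nfia was not called. Nfib had 348 CPM in clone 30 and 408 CPM in clone 31 untreated, against 475 and 679 CPM at 48 h. Both 48 h libraries lay above both untreated ones, with the larger rise in clone 31 (1.66-fold) than in clone 30 (1.36-fold). Nfib, the partner of NFIA in gliogenesis, thus changed by 0.59 ± 0.12 (log2 ± SE; edgeR adjusted p = 0.0335). Nfix had 342 and 319 CPM in untreated clones 30 and 31 and 420 and 485 CPM at 48 h. Its groups did not overlap either, and its log2 change was 0.45 ± 0.11 (edgeR adjusted p = 0.0486). An exact permutation test would give such separation of 2 libraries from 2 a 2-sided p of 0.333. The share of all genes so separated, here or in the later comparisons, was not counted.

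Nfic went the other way. It had 167 and 189 CPM in untreated clones 30 and 31 and 123 and 137 CPM at 48 h. Every 48 h library was below every untreated one, and the clones moved by nearly equal amounts, -0.44 in clone 30 and -0.46 in clone 31 on the log2 scale. The fitted change was -0.45 ± 0.08 (edgeR adjusted p = 0.0288). Nfia had 196 and 275 CPM untreated and 224 and 318 CPM at 48 h. It was higher in each clone, by 0.19 and 0.21, but its groups overlapped because clone 31 was above clone 30 throughout. Its change of 0.20 ± 0.09 was not called (edgeR adjusted p = 0.155).

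These calls count 2 of 4 members that rose and 1 that fell, where 17.4% of the 16007 genes tested were called in the same blocked fit (8.35% were higher, 9.08% lower). Without the block edgeR called 0 of the 4 members and 0% of all genes, with 3311 genes at an unadjusted p under 0.05. The adjusted p was 0.196 for Nfib, 0.159 for Nfic, 0.169 for Nfix and 0.720 for Nfia, with log2 changes of 0.61, -0.45, 0.45 and 0.20. DESeq2 without the block called Nfic (adjusted p = 0.0251) and Nfix (0.0276) but not Nfib (0.0640), where 10.4% of genes were called. DESeq2 with the block called all 3, where 21% of genes were called. In the blocked edgeR fit no member was called without the untreated library of clone 31 (adjusted p = 0.177 to 0.490) or without either 24 h library (0.0935 to 0.438). The log2 changes there were 0.54 to 0.59 for Nfib, -0.45 to -0.44 for Nfic and 0.30 to 0.45 for Nfix. Nfix alone stayed called without the untreated library of clone 30 (adjusted p = 0.0496), while Nfib and Nfic did not (0.0601 and 0.0700). Without the 48 h library of clone 31, Nfib and Nfic were called and Nfix was not (0.0665).

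**Figure D1:**
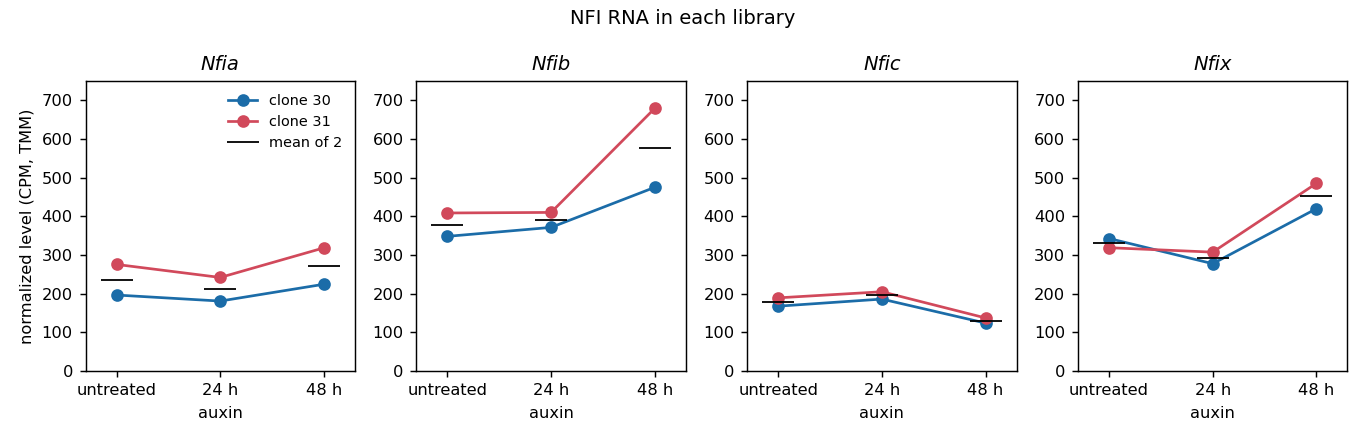
TMM-normalized level (CPM, linear axis from 0) of each NFI gene in untreated cells and after 24 h and 48 h of auxin. Points joined by lines are the libraries of clones 30 and 31 and the black bar is their mean (n = 2). At 48 h both points of Nfib and Nfix lie above, and both points of Nfic below, those of the other 2 groups.

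The comparison of 48 h with 24 h asks when the members moved. It held the largest differences for Nfia, Nfic and Nfix. With the clone as a block Nfix rose by 0.63 ± 0.11 on the log2 scale (edgeR adjusted p = 0.0188), from 277 and 307 CPM at 24 h in clones 30 and 31 to the 48 h values above. The 2 clones gave similar folds, 1.51 and 1.58. Nfib rose by 0.54 ± 0.12 (edgeR adjusted p = 0.0294), from 371 and 410 CPM, with 0.36 in clone 30 and 0.73 in clone 31. Nfia rose by 0.35 ± 0.09 (edgeR adjusted p = 0.0353), from 180 and 242 CPM. Its 24 h and 48 h libraries overlap in level, and the call rests on the block. Nfic fell by 0.58 ± 0.08 (edgeR adjusted p = 0.0162), from 186 and 205 CPM, with -0.59 in clone 30 and -0.58 in clone 31.

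Thus 3 of 4 members rose and 1 fell between 24 h and 48 h, where 26.1% of all genes tested were called in that fit (12.3% were higher, 13.9% lower). Without the block edgeR again called 0 members and 0% of genes, 3997 being at an unadjusted p under 0.05, with adjusted p = 0.0871 for Nfix, 0.0887 for Nfic, 0.175 for Nfib and 0.443 for Nfia. In the blocked fit no member was called without the 24 h library of clone 30 (adjusted p = 0.143 to 0.304) or of clone 31 (0.151 to 0.423), and Nfia was not called without either untreated library (0.0597 and 0.0579). DESeq2 called Nfic and Nfix without the block, where 15.8% of genes were called, and all 4 members with it, where 26.7% were.

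After 24 h of auxin no member had passed the test. Nfix was lower in both clones, by 0.30 in clone 30 and 0.05 in clone 31 on the log2 scale, and all 24 h libraries of Nfix (277 and 307 CPM) lay below all untreated ones (319 and 342 CPM). Its change with the block was -0.18 ± 0.11 (edgeR adjusted p = 0.874). Nfia was lower in both clones (-0.15 ± 0.09, adjusted p = 0.861 in edgeR), Nfic higher in both (0.13 ± 0.08, 0.874) and Nfib close to its untreated level (0.05 ± 0.12, 0.955). A p that misses the threshold does not show that the levels were the same. In the blocked edgeR fit 0% of all genes were called at 24 h (988 at an unadjusted p under 0.05), and 0% without the block (240 at that p). That count rests on the fit. With the block, dropping 1 library of the 48 h group gave 258 genes (clone 30 dropped) or 263 (clone 31 dropped), and there were 140 on the 4 libraries compared and 19 with no filter. DESeq2 called 0.256% of genes with the block (41 genes) and 0.0375% without it (6 genes). None of these fits called an NFI gene. The comparisons with untreated cells share the untreated libraries, and those with 24 h share the 24 h libraries, so their values are not independent.

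**Figure D2:**
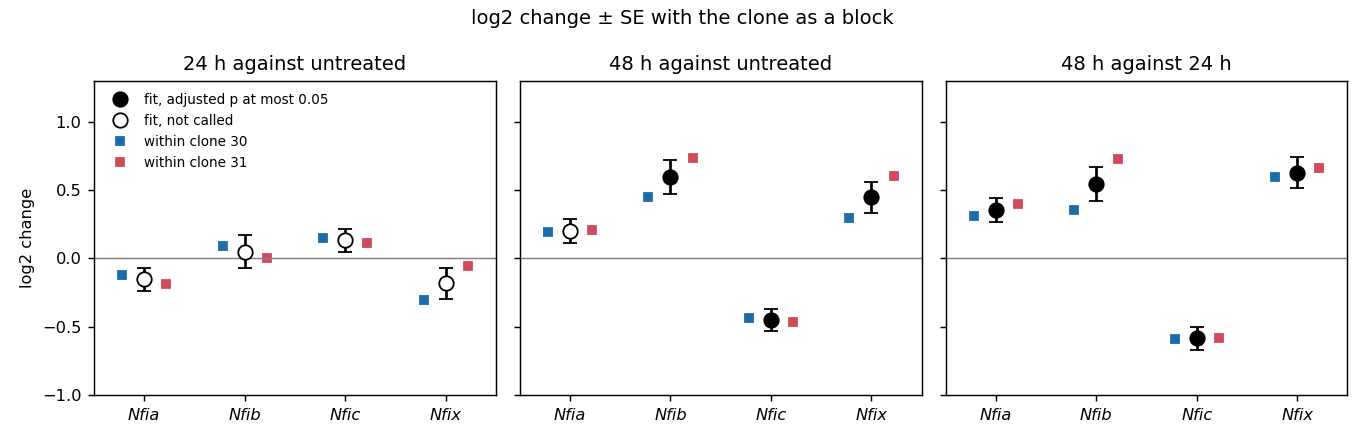
Log2 change of each NFI gene in the 3 comparisons of treatment groups. Circles with bars are the edgeR estimate ± SE with the clone as a block, filled where the adjusted p is at most 0.05, and squares are the differences of log2 CPM within clone 30 and within clone 31. At 24 h all circles are open, and at 48 h against 24 h all 4 are filled, with Nfic alone below 0.

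The subclones differed in Nfia. With treatment group and clone as terms, Nfia was higher in clone 31 by 0.47 ± 0.07 on the log2 scale (edgeR adjusted p = 0.0117), by 1.40-fold in untreated cells, 1.34-fold at 24 h and 1.42-fold at 48 h. Nfib (0.30 ± 0.10, edgeR adjusted p = 0.105), Nfic (0.15 ± 0.07, 0.183) and Nfix (0.08 ± 0.09, 0.585) were not called between clones, so 1 of 4 members was called where 16.1% of all genes were (7.54% higher in clone 31, 8.58% lower). Leaving out the 24 h library of clone 30 or of clone 31 ended the Nfia call (edgeR adjusted p = 0.128 and 0.123), at a difference of 0.50 in both fits. Nfib and Nfix changed more in clone 31 than in clone 30 at 48 h against untreated, by 0.29 (Nfib) and 0.31 (Nfix) on the log2 scale. With 1 library per clone and time these differences between clones could not be tested.

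The make-up of the family shifted with these changes. The summed level of the 4 genes was 437 and 485 TPM in clones 30 and 31 before auxin, 427 and 470 TPM after 24 h, and 523 and 597 TPM after 48 h. Of that sum Nfic made up 22.3% and 22.9% without auxin, 26.1% and 25.2% at 24 h, but only 14.5% and 12.8% at 48 h. Nfib began at shares of 20.6% and 22%, had 23.2% and 22.4% after 24 h, and reached 24.8% and 28.2% after 48 h. Nfix held the largest share in every library (34.2% to 44.6%), and its shares at 24 h lay below those at 48 h. Nfia held between 15.5% and 20.3%, with overlapping groups. The ratio of Nfib to Nfic per length shows the contrast within each library, where no scaling between libraries enters. In clones 30 and 31 it was 0.922 and 0.959 before auxin, then 0.886 and 0.888 at 24 h, and 1.70 and 2.20 at 48 h. An exact permutation test of 2 libraries against 2 cannot give a 2-sided p below 0.333, so none was run on shares or ratios.

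**Figure D3:**
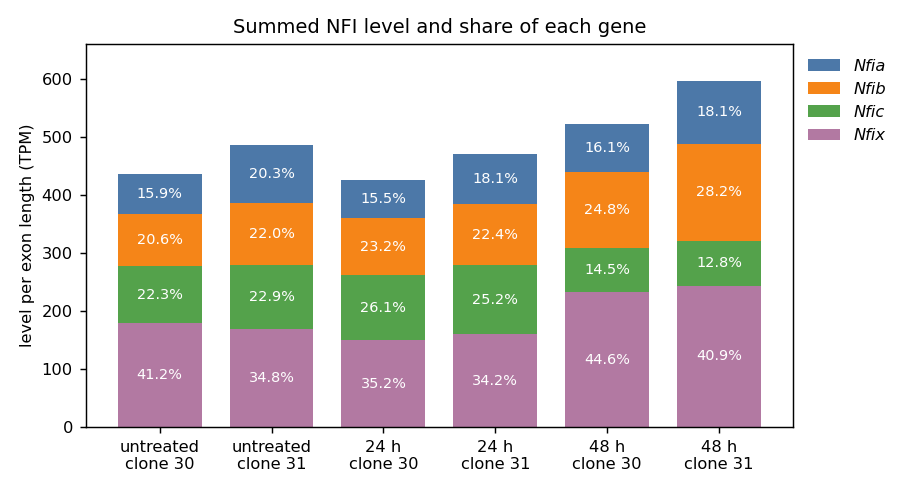
Stacked levels per exon length (TPM, linear axis from 0) of the 4 NFI genes in each library, with the share of each gene in the sum printed in its segment. The segment of Nfic narrows from 22.3% and 22.9% untreated to 14.5% and 12.8% at 48 h while the summed level rises to 523 and 597 TPM.

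Genes that act with the NFI factors were followed through lists, which were chosen with earlier results of these data known. Of 11 genes reported to induce, accompany or oppose NFI factors in glial development 10 were tested, and 4 rose and 0 fell at 48 h against untreated in the blocked fit (median log2 change 0.38, against 0.02 over all genes tested). Sox9, which switches on Nfia and then works with it in early gliogenesis, rose by 1.16 ± 0.15 (edgeR adjusted p = 0.0238). Zbtb20, a zinc finger partner of both in astrocyte formation, rose by 0.71 ± 0.18 (0.0494) and Pou3f2, a POU factor of neural progenitors, by 0.65 ± 0.16 (0.0480). The Notch effector Hes5 rose by 3.57 ± 0.81 (0.0387), from levels that differed widely between the clones. It had 7.99 CPM in untreated clone 30 and 0.775 CPM in untreated clone 31, against 32.6 and 44.2 CPM at 48 h. The other 6 were not called, and Olig2, which opposes NFIA in motor neuron and oligodendrocyte precursors, stood at 648 ± 64.8 CPM untreated and 539 ± 113 CPM at 48 h (SD, n = 2).

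In a list of astroglial genes taken as NFI targets, 12 of 12 members lay above 0 at 48 h, where 8308 of the 16007 genes tested did. Of the 12, 6 rose and 0 fell (median 0.96). Whether NFI factors bind them in these cells was not tested. Fgfr3, a growth factor receptor of astroglia, went from 131 ± 32.8 to 394 ± 101 CPM (SD, n = 2; log2 1.56 ± 0.26, edgeR adjusted p = 0.0258). The calcium-binding gene S100b rose by 0.96 ± 0.18 and the glycolytic enzyme gene Aldoc by 0.97 ± 0.21. Gfap, the filament gene whose promoter is the classic NFI target in astrocytes, rose by 1.85 ± 0.28 but only to 1.83 ± 1.25 CPM. At 24 h 0 members of the list were called, 9 of 12 lay below 0 and the median was -0.03. Between 24 h and 48 h 8 rose and 0 fell (median 0.99), where 12.3% of all genes tested were called higher. In that comparison 0 were called without the block, 0 with the block but without either 24 h library, and 4 without the 48 h library of clone 31 (median 0.67), against 12 without that of clone 30 and 5 with no filter. Markers of astrocytes moved with these genes and share 4 of them. Their summed level was 113 to 260 CPM untreated, 116 to 215 CPM at 24 h and 324 to 353 CPM at 48 h, with 5 of 6 above 3 counts in every library and the gap junction gene Gjb6 at 0 in all of them. Their part in the NFI changes was not tested.

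Among 4 progenitor genes that NFI factors are reported to repress, 0 fell in the blocked fit and 1 rose, Sox9, which is also in the list of partners. Which of them were called, in either direction, changed when either 48 h library was left out. The median was then 0.22 (clone 30 left out) or -0.12 (clone 31 left out), against 0.06 with all libraries. Ezh2, the methyltransferase of Polycomb repressive complex 2, had a log2 change of -0.32 ± 0.09 at 48 h (edgeR adjusted p = 0.0541), Bbx one of -0.17 ± 0.09 (0.241) and the Notch effector Hes1 one of 0.30 ± 0.15 (0.215).

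Of 14 genes tied to neural stem cell quiescence 13 were tested, and 7 rose and 0 fell at 48 h (median 0.60). Of the 13, 11 lay above 0 and 2 below, Klf9 (-0.48 ± 0.25, edgeR adjusted p = 0.220) and Id3 (-0.06 ± 0.10, 0.713). Vcam1, an adhesion molecule of quiescent stem cells, went from 14.5 ± 3.11 to 44.5 ± 6.03 CPM (SD, n = 2; log2 1.63 ± 0.12, edgeR adjusted p = 0.0238). Hopx, a marker of quiescent stem cells, rose from 3.46 ± 0.33 to 9.74 ± 0.13 CPM (edgeR adjusted p = 0.0238). Hopx already stood at 8.31 ± 0.96 CPM at 24 h, a log2 difference of 1.27 ± 0.18 from untreated that was not called (edgeR adjusted p = 0.407), and its difference between 24 h and 48 h was 0.23 ± 0.17 (0.330). Lrig1, a brake on growth factor receptors, rose by 0.80 ± 0.14 on the log2 scale at 48 h. The differentiation inhibitor Id4 rose by 2.77 ± 0.45, from levels that differed widely between the clones (6.48 ± 8.38 CPM untreated). Between 24 h and 48 h 6 quiescence genes rose and 1 fell with the block, where 12.3% of all genes tested were called higher and 13.9% lower. Without the block 0 were called. The 1 that fell was Klf9, from 76.2 ± 7.66 to 40.2 ± 6.58 CPM (SD, n = 2; log2 -0.90 ± 0.25, edgeR adjusted p = 0.0477). Of 12 cell division genes 8 fell and 0 rose at 48 h against untreated (median -0.78). Ccnd1, the cyclin through which growth factors open G1, went from 1219 ± 134 to 351 ± 209 CPM (SD, n = 2; log2 -1.93 ± 0.26, edgeR adjusted p = 0.0238). Ccne2, a cyclin of S-phase entry, fell by 1.45 ± 0.11, Mcm3 of the replicative helicase by 1.06 ± 0.12 and the S-phase activator E2f1 by 0.93 ± 0.11. At 24 h edgeR called 0 members of either list with or without the block. DESeq2 with or without the block, and the blocked edgeR fit with no filter, called 1 quiescence gene higher at 24 h. The blocked edgeR fit without either 48 h library, or on the 4 libraries compared, called 1 higher and 1 lower.

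In the blocked fit at 48 h, 8.35% of all genes were called higher and 9.08% lower. Since the lists were chosen with earlier results known, their counts beside these shares are a description and not a test. Apart from Olig2, Mki67, Klf9 and Id3, the genes named from them are those with the smallest blocked p. Without the block edgeR called 0 members of any of these lists (adjusted p of at least 0.139). With no filter and no block it called 1 partner, 1 astroglial target, 1 repressed gene and 2 quiescence genes higher and 3 cell division genes lower. DESeq2 without the block called 4, 3, 1 and 3 higher and 4 lower in the same order. The blocked edgeR fit on the 4 libraries compared called 0 in every list. In the blocked fit without the untreated library of clone 31, 0 members of any list were called, with medians of 0.33 for the partners, 0.60 for the astroglial targets, 0.36 for the quiescence genes and -0.80 for the cell division genes. Without either 24 h library the counts were 1, 3 and 2 that rose among partners, astroglial targets and quiescence genes, and 5 that fell among cell division genes. Without the 48 h library of clone 31 the medians were 0.27 for the partners, 0.52 for the astroglial targets and 0.30 for the quiescence genes. Without that of clone 30 they were 0.47, 1.26 and 0.95 in the same order. Without the untreated library of clone 30 they were 0.41, 1.24 and 0.79.

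**Figure D4:**
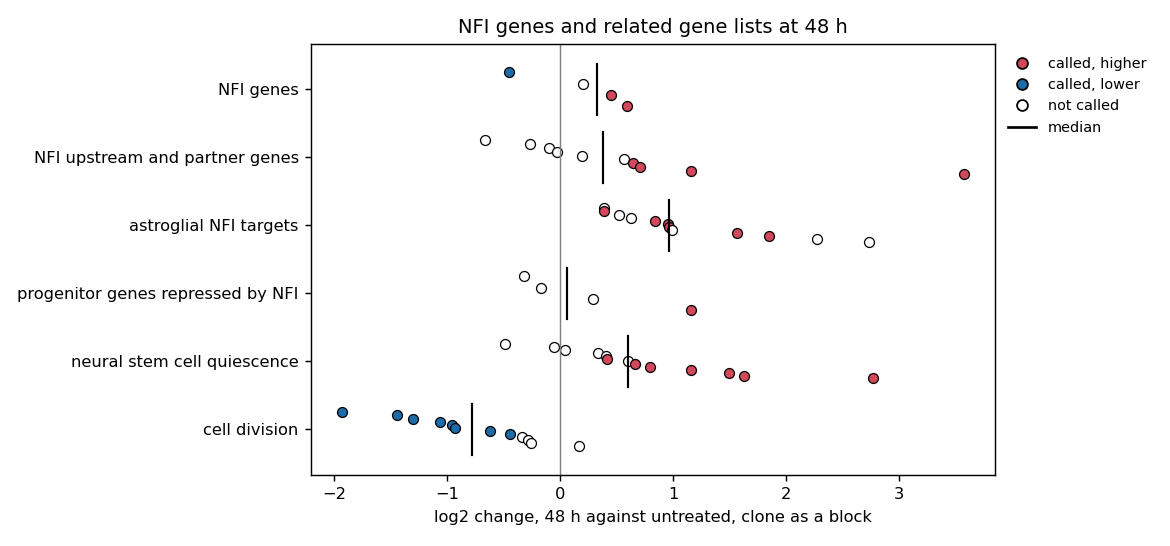
Log2 change at 48 h against untreated, with the clone as a block, of the 4 NFI genes and of the tested members of 5 gene lists. Each circle is a gene, red where called higher, blue where called lower and white where not called by edgeR (adjusted p at most 0.05), and the black line is the median of the list. All 12 astroglial targets lie to the right of 0, and 11 of 12 cell division genes to the left.

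Promoter windows were read from RefSeq (GRCm38.p6, 250 bases before to 50 after each start) for the 3 members with an entry there, Nfia, Nfic and Nfix. They are shown for the member that fell and for 1 start of a member that rose, with NFI half-sites in capitals (TTGGC or, on the other strand, GCCAA), because NFI factors bind such sites in many neural promoters. The Nfix window was chosen after the matches were counted, as the one with the most.
Nfic, chr10:81427124-81427423, minus strand: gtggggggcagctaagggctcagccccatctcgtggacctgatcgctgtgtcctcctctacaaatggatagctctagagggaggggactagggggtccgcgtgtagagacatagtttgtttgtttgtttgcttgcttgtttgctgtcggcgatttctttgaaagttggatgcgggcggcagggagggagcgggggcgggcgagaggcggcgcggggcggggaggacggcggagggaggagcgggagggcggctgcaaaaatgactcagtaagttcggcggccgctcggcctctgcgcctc
Nfix, chr8:84772826-84773125, minus strand: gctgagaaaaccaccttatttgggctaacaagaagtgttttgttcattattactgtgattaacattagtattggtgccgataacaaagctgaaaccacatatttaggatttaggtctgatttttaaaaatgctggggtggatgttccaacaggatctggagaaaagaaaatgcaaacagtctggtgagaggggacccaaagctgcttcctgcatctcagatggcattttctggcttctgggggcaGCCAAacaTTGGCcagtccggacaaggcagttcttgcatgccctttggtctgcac
The Nfic window held 0 half-sites and this Nfix window 2, 1 on each strand. The other 3 starts of Nfix had 0, 1 and 1, and the single Nfia window, which lies upstream of the gene model that was counted, had 0. The Nfic window and all Nfix windows lie inside the gene models that were counted, downstream of their 5′ ends. A half-site occurs in 46.7% of all 32851 promoter windows of this length, so its presence or absence does not set these genes apart. The full palindrome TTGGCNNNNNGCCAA occurs in 0.0365% of windows and in none of the members. The core of the RBPJ site, TGGGAA on either strand, occurs in 25.6% of windows and in none of theirs.

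Over the 6 libraries Nfib and Nfix followed each other (Pearson r = 0.860 of log2 CPM), and Nfic ran against Nfix (r = -0.874) and Nfib (r = -0.636). Among the 11086 genes with at least 5 CPM on average, the 3 most like Nfix were Tprkb (r = 0.999), Prkcq (0.998) and Sez6l (0.997). For Nfic they were Pdxp (0.999), Mtg1 (0.998) and Aimp2 (0.998), for Nfib Slc2a8 (0.996), Nr2f2 (0.994) and Kat6b (0.994), and for Nfia Tgm2 (0.997), Acvr2b (0.995) and Acd (0.993). Tgm2, like Nfia, was higher in clone 31 at each time, at 25.5 against 9.23 CPM untreated and 46.7 against 12.8 CPM at 48 h. These correlations rest on 6 points that share 2 clones and 3 times, and are a description with no test.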

How the data were processed

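Libraries were made with a TruSeq RNA kit from RNA with RIN above 9, per the labels' protocols. The authors deposited unnormalized counts per gene from featureCounts 1.6.1 (exons, paired, strand setting 2), made with Ensembl release 92 for mm10, per the file headers. Those headers name merged alignments without duplicates. Of 53801 identifiers 53620 had a symbol.

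All 6 libraries entered a quasi-likelihood fit in edgeR 4.0.16 (R 4.3.3, TMM, filterByExpr, 16007 genes, 2-sided p adjusted by Benjamini-Hochberg over all genes, threshold 0.05). The planned model held treatment group alone, and the clone comparison added clone. Equal numbers in the titles mark 1 subclone, and deviations from the group means correlated at 0.803, 0.580 and 0.707, so the clone pairs the libraries. For the treatment comparisons the Results and figures lead with the blocked fit, which was planned as an alternative. The planned fit is given beside it. An SE is the size of the log2 change over the root of F. Alternatives were DESeq2 1.42.0, limma voom (limma 3.58.1), other scalings and filters, only 4 libraries, and each library left out. Several of these combined with the block were chosen after seeing the data. The fits were tested on simulated data. CPM use TMM, TPM use deposited exon lengths, and differences within a clone use log2 CPM (prior count 2). The floor of 3 counts is 0.122 CPM in the smallest library. The counting errors given for the members cover counting only and leave out the spread between libraries.

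Members and lists were chosen with earlier results of these data known. The text names up to 4 genes per list by smallest blocked p at 48 h, and the 3 genes most correlated with each member. Olig2, Mki67, Klf9 and Id3 were added after their values were seen.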

Additional observations from a re-analysis of the deposited data

How the results depend on the processing

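Without the clone term, edgeR called no NFI gene between treatment groups under any scaling or filter, limma voom, the 4 libraries compared or any library left out, except 1 gene with no filter (Nfix, 48 h against 24 h, adjusted p = 0.0492). DESeq2 without that term called 2 genes in each 48 h comparison. With the clone as a replicate block, 3 genes were called at 48 h against untreated and 4 at 48 h against 24 h, and DESeq2, limma voom, upper-quartile scaling, total counts, DESeq2 size factors and no filter, each with the block, gave the same counts. With the block on the 4 libraries compared they were 0 and 3. With 1 library left out and the block they ran from 0 to 3 and from 0 to 4. Between clones 0 to 1 genes were called with 1 library left out. Nfib, Nfic and Nfix kept their direction at 48 h in every fit. With 1 library left out and no block, Nfia at 48 h against untreated ran from -0.088 to 0.47, turning negative where the untreated library of clone 30 (-0.029) or the 48 h library of clone 31 was dropped. At 24 h Nfia ran from -0.39 to 0.11, turning positive where untreated clone 31 or 24 h clone 30 (0.04) was dropped. Nfib at 24 h ran from -0.062 to 0.17, turning negative where untreated clone 30 or 24 h clone 31 (-0.028) was dropped, and with the block it was -0.064 without 24 h clone 30. Dropping 1 library without a clone term leaves the clones unbalanced between groups. The counting error of a member in 1 library was at most 1.66%, which is above the spread of Nfic between the 48 h libraries in TPM (76.2 ± 0.197). With TMM scaling these libraries stood further apart, at 123 CPM in clone 30 and 137 CPM in clone 31 (130 ± 9.42, SD, n = 2). As shares of counts not divided by length, Nfic made up 15.9%, 17.9% and 9.19% of the family untreated, at 24 h and at 48 h.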
